A study of Mus musculus with 12 samples.

Results

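The lung of Adam19 knockout (KO) mice was compared with the lung of wild type (WT) mice across the genes of the deposited gene table. The mice were adult males on the 129S6/SvEvTac background. KO mice were homozygous for an Adam19-tdTomato allele, in which a tdTomato reporter construct takes the place of exons 6 and 7 of Adam19 in every cell of the body, and WT mice carried the unmodified gene. Neither group was treated. Whole lungs were frozen, and strand-specific total RNA libraries were sequenced, 1 per mouse, which gave 3 WT and 3 KO lung libraries of the 12 libraries of the series. The other libraries are hearts of the same mice. Of 55679 genes in the table, 16549 had a value of at least 3.46 in 3 or more lung libraries and form the set described here. At the edge of this limit, the third highest lung value was 3.4602 for 4930547M16Rik, which was kept, and 3.45995 for Ighv1-19, which was not. The gene values are log2 values of 1 plus an estimated read count, scaled between libraries. They are called levels below, and a difference is the KO mean minus the WT mean on this log2 scale, so that a difference of 1 stands for a change of 2-fold. Differences were tested with limma and adjusted over all genes tested by the Benjamini-Hochberg method.

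ADAM19 is a membrane-bound metalloprotease that cuts proteins off the cell surface, among them neuregulins and TNF. The lung consists of gas-exchanging alveoli, lined by flat type 1 and surfactant-producing type 2 cells, and of airways, lined by club, ciliated and mucous cells, with a dense capillary bed, fibroblasts and resident immune cells around them. In RNA of a whole organ, fewer cells of a type and less RNA per cell cannot be told apart. The libraries carried the markers of lung in abundance. The type 2 cell gene Sftpc had a level between 16.32 and 17.28 and the club cell gene Scgb1a1 a level between 17.28 and 18.41, and both were among the 10 protein-coding genes with the highest mean level.

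Estimated counts summed to between 21205162 and 25899022 in the WT lungs and to between 17674788 and 28043361 in the KO lungs. The signal recognition particle RNA gene Rn7s1 took between 2.10% and 34.0% of this sum in WT and between 3.22% and 20.3% in KO lungs. One library stood apart from the other 5. Among 12063 genes with a level of at least 6 in every lung library, WT replicate 3 lay more than 0.5 above all other libraries for 1009 genes and more than 0.5 below them for 735. The other libraries did so for 9 to 94 genes above and 8 to 176 genes below. The first principal component held 38.7% of the variance and placed WT replicate 3 at 65.7 and the other libraries between −15.5 and −10.9. Where leaving it out moved a list median by more than 0.1 or the difference of a named gene by more than 0.3, the value without it is given beside the result. In the labels, WT replicates 1 and 2 share a mouse identifier prefix and WT replicate 3 has another, as does KO replicate 1 against KO replicates 2 and 3. The mouse identifiers of WT and KO mice share no prefix, so that a difference between the prefixes and the genotype cannot be told apart.

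Adam19 itself had levels of 9.14, 9.41 and 9.12 in the WT lungs and of 4.44, 3.21 and 3.50 in the KO lungs. All KO libraries lay far below all WT libraries, and Adam19 fell by 5.51 (standard error 0.33, adjusted p = 0.000186, limma). For the Adam19-tdTomato construct, every WT lung was at 0, and it had levels of 11.13, 10.93 and 10.34 in the KO lungs, so that the labels and the targeted gene matched in all 6 libraries.

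Besides these, very few genes differed. A gene was called where the adjusted p was below 0.05, the means differed by 1.5-fold or more and the higher group mean reached 6. These thresholds were passed by 11 genes, which is 0.0665% of the genes tested, and 15 (0.0906%) had an adjusted p under 0.05. The 11 comprised Adam19, the construct and the protein-coding genes Pttg1, Cd300lg, Gm10184 and Gm21970, and the other 5 were pseudogenes or long noncoding RNAs. Of the 11 genes, 4 reached the limit of 3.46 in all KO and no WT library and 4 in all WT and no KO library, and they entered the test through the group where they were high. In all, 42 and 32 tested genes had these patterns.

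**Figure D1:**
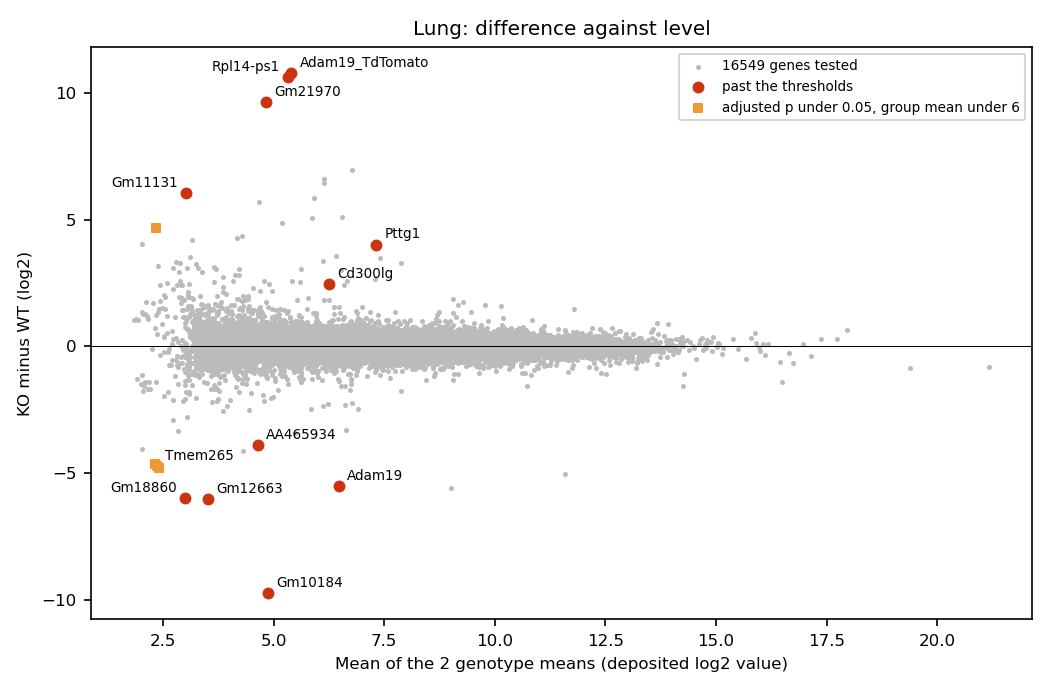
Difference between KO and WT lungs (log2, vertical axis) against the mean of the genotype means (log2 level, horizontal axis) for 16549 genes, 1 point per gene. The 11 genes past the thresholds are red and 4 genes with an adjusted p under 0.05 and a lower level are orange, and most other genes lie close to 0.

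Pttg1 encodes securin, which holds separase inactive until sister chromatids part. Its levels were 5.11, 5.12 and 5.68 in WT and 9.30, 9.57 and 9.09 in KO lungs. The groups were far apart, and Pttg1 rose by 4.02 (standard error 0.24, adjusted p = 0.000186, limma), or 16.2-fold. It remained past the thresholds with any 1 library left out, with a difference between 3.89 and 4.21. Cd300lg encodes a receptor of the CD300 family found on capillary endothelium. Its levels were 5.04, 4.65 and 5.40 in WT and 7.55, 7.93 and 6.96 in KO lungs. Its groups did not overlap either, and the difference was 2.45 (standard error 0.32, adjusted p = 0.0445, limma), or 5.46-fold. This call was lost when any 1 library was left out, with adjusted p-values from 0.0564 without WT replicate 3 to 0.287 without KO replicate 2, and with limma-voom (adjusted p = 0.0799). Neither gene had a near-identical copy of at least 300 nucleotides at 95% identity in the GENCODE vM39 transcripts.

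Each of the other 7 genes past the thresholds shares at least 300 nucleotides, at 95% identity or more, with another gene. Reads of the shared stretch cannot be assigned to 1 gene by their letters alone, and the estimates of such genes are uncertain. The stretches below show how little separates a pair. Each is 30 bases of GRCm39 within an exon, written 5′ to 3′ on the strand of the transcript, with the differing bases in capitals. Gm10184 (chr17:90217035-90217064, minus strand, exon 1, coding) and Kpna2 (chr11:106882115-106882144, minus strand, exon 7, coding) differ at 2 of 1968 aligned bases. Rpl14-ps1 (chr7:44974793-44974822, plus strand, exon 1 of a processed pseudogene) and Rpl14 (chr9:120403211-120403240, plus strand, exon 6, coding) differ at 4 of 656 positions beside 3 gap positions. Gm12663 (chr11:16585930-16585959, minus strand, exon 1 of a processed pseudogene) and Ublcp1 (chr11:44357659-44357688, minus strand, exon 2, coding) differ at 5 of 958 positions beside 1 gap position.
Gm10184: taatcttacctggacGctttcaaacctttg
Kpna2: taatcttacctggacActttcaaacctttg
Rpl14-ps1: cctgaaagcttctccTaaGaaagcagctgt
Rpl14: cctgaaagcttctccCaaAaaagcagctgt
Gm12663: gggagtgctcccagaGcgccagaagttact
Ublcp1: gggagtgctcccagaAcgccagaagttact

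Kpna2 encodes importin alpha 1, an adaptor that carries proteins into the nucleus. Gm10184 had levels of 9.49, 9.32 and 10.42 in the WT lungs and was listed at 0 in every KO lung. Kpna2 was listed at 0 in WT replicate 1, had levels of 5.33 and 6.63 in WT replicates 2 and 3, and had levels of 9.24, 9.06 and 8.99 in the KO lungs. In these libraries the 2 genes thus stood in opposite order. Kpna2 did not pass (difference 5.11, standard error 1.39, adjusted p = 0.806, limma), except without WT replicate 1 (adjusted p = 0.0454). Without WT replicate 3 its difference was 6.43. When Gm10184, Kpna2 and their other copies in the table were added up, the summed level was 9.49, 9.41 and 10.53 in WT and 9.24, 9.06 and 9.01 in KO lungs. The groups did not overlap, and the difference was −0.71 (exact permutation test, 2-sided p = 0.10, the smallest that 3 against 3 allows). WT replicate 3 had the highest sum, and without it the difference was −0.35.

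For the other pairs, too, the sum differed far less than the single gene. A sum moves little where the other gene has a much higher level, whatever the single gene does. This applies to Gm12663 and Gm18860, as Ublcp1 and Cnot8 had WT means of 9.23 and 10.14. Small differences of those sums therefore do not show whether the single genes changed. Rpl14-ps1 was listed at 0 in every WT lung and had levels of 9.74, 10.995 and 11.18 in KO lungs, while Rpl14, which encodes a ribosomal protein, had levels between 12.28 and 13.44 in all 6. Their sum differed by 0.04, and by 0.40 without WT replicate 3. Gm12663 had levels between 6.24 and 6.81 in WT and between 0 and 0.94 in KO lungs, and its sum with the phosphatase gene Ublcp1 differed by 0.14, which was 0.48 without WT replicate 3. Gm18860 had levels between 5.58 and 6.55 in WT and was listed at 0 in KO lungs, and its sum with Cnot8, a subunit of a deadenylase complex, differed by −0.31. Cnot8 alone was also lower in every KO lung than in every WT lung (difference −0.23, adjusted p = 0.841, limma), and so was this sum. Gm21970 shares 1715 identical bases with Il10rb and 748 with Ifnar2, both cytokine receptor chains. It was listed at 0 in WT lungs and had levels of 9.31, 10.38 and 9.23 in KO lungs, and Il10rb differed by −0.69 and Ifnar2 by −0.67. The sum of these 3 genes differed by −0.03.

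**Figure D2:**
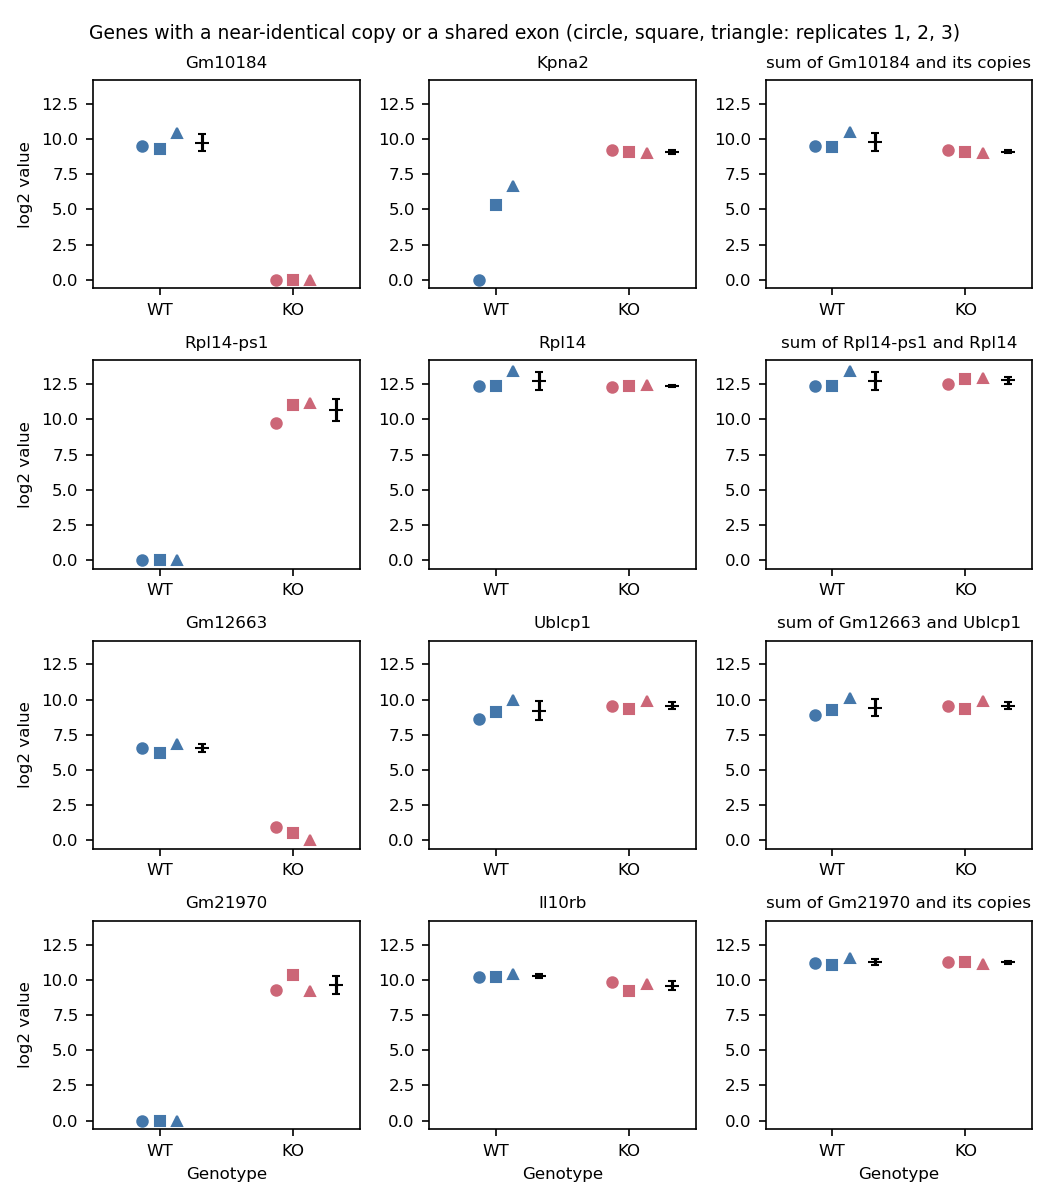
Log2 level in each lung library (vertical axis, WT blue, KO red; circle, square and triangle are replicates 1, 2 and 3) of 4 genes past the thresholds, of their most alike gene and of the sum with all copies in the table. Black bars are the mean and SD of 3 libraries, drawn where no library is at 0. The summed levels of the genotypes lie closer together than the levels of the gene past the thresholds. For Gm10184 and its copies, the sums still do not overlap (difference −0.71). Rpl14 and Ublcp1 have the higher level of their pair, which limits how far those sums can move.

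Gm11131 and AA465934 are long noncoding RNAs. Gm11131 was listed at 0 in WT lungs and had levels of 6.07, 6.17 and 5.90 in KO lungs, and it shares 452 bases with the MHC class I gene H2-Q4, which lies on the opposite strand and differed by −0.43. AA465934 had levels of 6.84, 6.35 and 6.58 in WT and 3.22, 1.92 and 2.90 in KO lungs. All KO lungs lay below all WT lungs for AA465934, a difference of −3.91 (adjusted p = 0.0125, limma). With 1 library left out, AA465934 stayed past the thresholds in 2 of 6 fits. In the others its adjusted p ran from 0.0612 without KO replicate 3 to 0.114 without WT replicate 1 (limma). Gm11131 and Gm18860 each stayed past the thresholds in 4 of 6 such fits. The libraries were strand-specific, but whether the counting used the strand was not given in the sources used here, so that Gm11131 and H2-Q4 may share reads, and the value of AA465934 is uncertain for the same reason. The 4 genes with an adjusted p under 0.05 and a lower level (Tmem265, Gm50388, Gm42546 and Gm6685) were all listed at 0 in 1 genotype and all share such a stretch with another gene. Their sums with those genes differed by 0.51, −0.20, −0.07 and −0.05. Each sum includes a gene of higher level, which limits how far it could move.

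On chromosome 11, where Adam19 lies, 5 of the 11 genes were found, the targeted gene included (Adam19, Pttg1, Gm12663, AA465934 and Cd300lg). They were among 1309 genes tested there, against 11 among all 16549 genes tested (0.0665%). Kpna2, Ublcp1 and Cnot8, which share sequence with Gm10184, Gm12663 and Gm18860, lie on chromosome 11 too. The count may thus depend on how reads of shared stretches were assigned. Pttg1 starts 2.64 Mb before Adam19 and Cd300lg starts 56.0 Mb after it. In the hearts of the same mice, Pttg1 differed by 4.37 (adjusted p = 4.61e-07, limma), Gm10184 by −10.15, Gm12663 by −6.69, Gm18860 by −6.01 and AA465934 by −5.69, all past the same adjusted p. Others of the 11 genes did not pass there. Rpl14-ps1, Gm21970 and Gm11131, listed at 0 in WT lungs, differed by −2.97 (adjusted p = 0.751), −2.91 (adjusted p = 0.754) and 2.74 (adjusted p = 0.457, limma) in the heart. Cd300lg differed by 0.39 in the heart (adjusted p = 0.793), but the difference of 2.06 between the tissues did not pass either (adjusted p = 0.205, limma interaction term, and 0.280 with the lung and heart of each mouse as a block).

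The question of what stayed the same was addressed through the 95% intervals of the differences. For 11841 genes, 71.6% of those tested, the whole interval lay within 2-fold of no change, and for 4869 (29.4%) it lay within 1.5-fold. The median difference over all genes was 0.01, and the median interval reached 0.52 to either side of its estimate. How tightly a gene was bounded went with its level. The share within 2-fold was 9.47% of 2354 genes with a mean level under 5, 64.5% of genes from 5 to 8, 91.0% of genes from 8 to 11 and 93.0% of genes above. Among the 10 protein-coding genes with the highest mean level, the interval lay within 2-fold for Ahnak, Eef1a1, mt-Co1, Lyz2, Macf1, Sftpa1, Sptbn1 and Gsn and reached past it for Scgb1a1 and Sftpc.

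To describe cell types and functions, 41 lists of cell type markers and 37 lists of genes of 1 function were used, 823 genes in all, of which 764 were tested. Not 1 of these genes passed the thresholds, and the lowest adjusted p was 0.386 (Ighm, limma). At an unadjusted p under 0.05 in either direction there were 67 members (8.77% of those tested). Of all 16549 genes tested, 981 had such a p, 522 (3.15%) higher and 459 (2.77%) lower in KO lungs. Of all genes, 1060 (6.41%) had every KO library above every WT library and 1060 (6.41%) every KO library below. The list members are therefore described by their values, with p-values from the limma fit, adjusted over all genes tested.

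**Figure D3:**
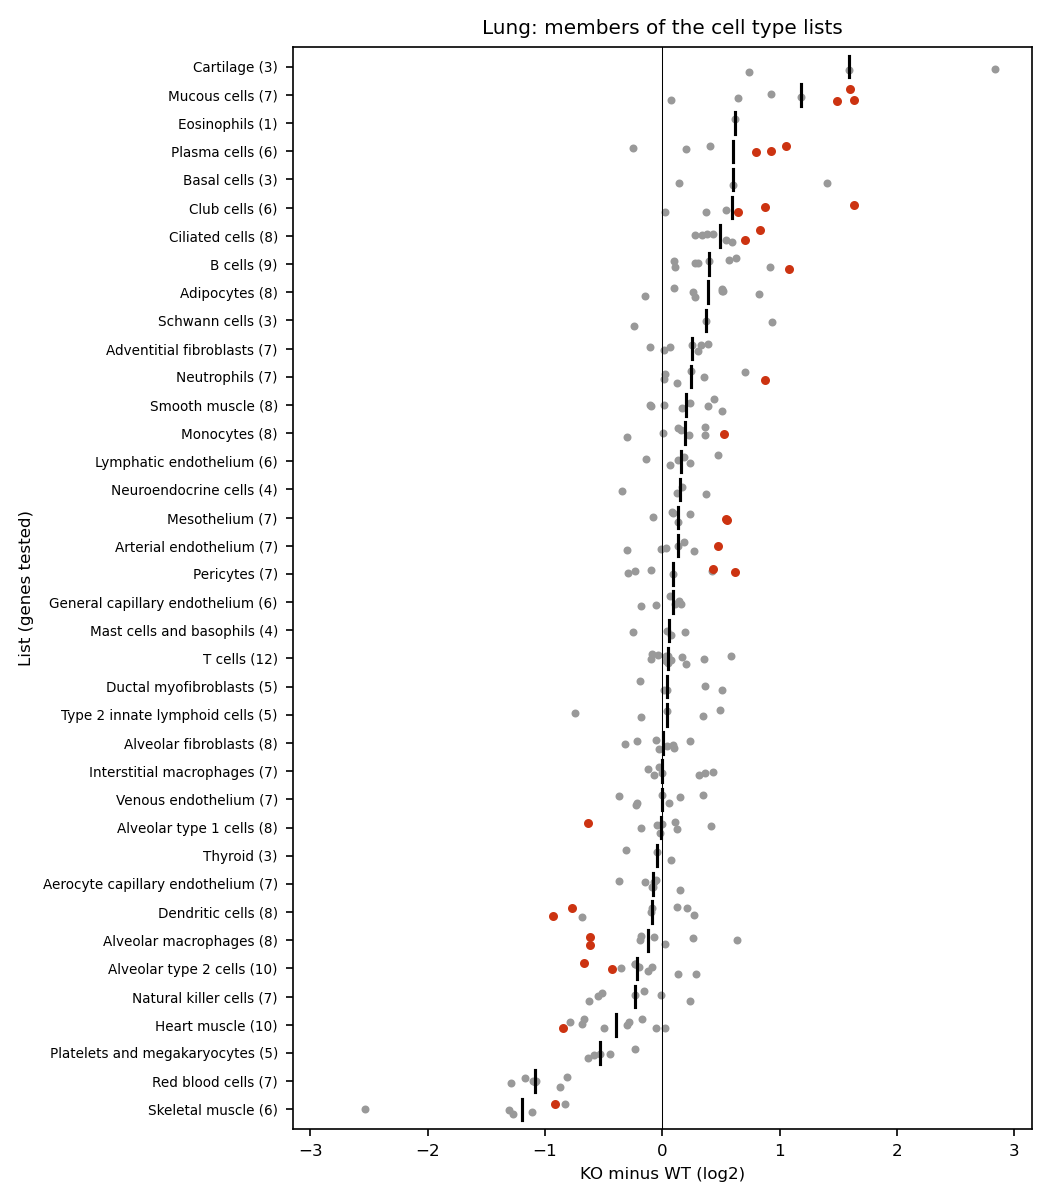
Difference between KO and WT lungs (log2, horizontal axis) of each tested member of 38 cell type lists (rows, number tested in brackets). Points are genes, red where the unadjusted p was under 0.05, and black bars are list medians, which run from −1.19 for skeletal muscle (−1.68 without WT replicate 3) to 1.59 for cartilage (0.68 without it), whose 3 tested genes all reached the limit for testing in more KO than WT libraries.

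Genes of the conducting airway had the most uniform direction among the epithelial lists. All 6 club cell genes, all 8 ciliated cell genes, all 7 mucous cell genes and the 3 tested basal cell genes had a higher mean in KO lungs, with median differences of 0.59, 0.49, 1.18 and 0.60, against 0.01 over all genes. KO libraries lay above all WT libraries for 3 of the club, 3 of the mucous and 1 of the ciliated cell genes (6.41% of all genes). The gel-forming mucin Muc5b had levels of 9.19, 8.92 and 9.93 in WT and of 10.41, 11.51 and 10.93 in KO lungs. Every KO lung lay above every WT lung, with a difference of 1.60 (standard error 0.33, adjusted p = 0.533, limma). The other gel-forming mucin of the airway, Muc5ac, had low levels of 3.26, 4.93 and 4.46 in WT and 5.33, 5.96 and 5.81 in KO lungs. These groups did not overlap (difference 1.49, adjusted p = 0.806). The secreted protein Bpifb1 differed by 1.63 (adjusted p = 0.806).

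Among club cell genes, the secretoglobin Scgb3a2 had levels of 13.39, 13.41 and 13.62 in WT and 14.18, 14.75 and 14.10 in KO lungs. Its groups did not overlap, and it differed by 0.87 (standard error 0.20, adjusted p = 0.727, limma). Scgb1a1, the main club cell secretory protein, had levels of 17.51, 18.12 and 17.28 in WT and 18.11, 18.32 and 18.41 in KO lungs. Here WT replicate 2 lay just above KO replicate 1 (difference 0.64, adjusted p = 0.820). Cyp2f2, a cytochrome P450 of club cells, differed by 0.37 and did not overlap. Cldn10 differed by 0.03. KO replicate 2 had the highest level of each of the mucins and of Scgb3a2 and Bpifb1. It also had the highest summed level of cartilage genes (8.43, against 4.15 to 7.03 in the other libraries), and the part of large airway in each sample was not tested.

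Foxj1, the transcription factor of motile cilia, had levels of 9.45, 9.62 and 9.44 in WT and 9.77, 9.98 and 9.77 in KO lungs. The groups did not overlap, but the difference was only 0.34 (standard error 0.15, adjusted p = 0.828). The outer dynein arm gene Dnah5 differed by 0.70 and Cfap43 by 0.83 (1.14 without WT replicate 3). WT replicate 3 overlapped the KO lungs for most ciliated genes, and without it 7 of 8 had every KO lung above both remaining WT lungs (15.2% of all genes did so in that comparison), with a median of 0.75. A wider set of axoneme genes was chosen by symbol after the values were seen. Of its 74 tested members, 69 were higher and 5 lower in KO lungs, with a median of 0.46. The groups did not overlap upwards for 23 of them and downwards for 1, against 6.41% of all genes in each direction. The 1 downwards was Dnah2os (−0.28), which the symbol match took in beside Dnah2 itself (0.41). The set includes Dnah5, Cfap43 and Rsph1 of the ciliated list and is not independent of it. Without WT replicate 3 the median was 0.56. Leaving out WT replicate 3 turned the mucous median from 1.18 to 1.51, the club cell median from 0.59 to 0.40 and the basal cell median from 0.60 to 0.42. Of the genes tested, 2 mucous, 1 basal and 2 axoneme genes reached the limit for testing in more KO than WT libraries, and 0 in more WT libraries.

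Genes of the alveolar epithelium had smaller differences. Of 10 type 2 cell genes, 8 had a lower mean and 2 a higher mean in KO lungs, with a median of −0.21, and 9 of 10 intervals lay within 2-fold. Surfactant protein C (Sftpc) had levels of 17.02, 16.94 and 17.28 in WT and 16.58, 16.32 and 16.32 in KO lungs. All KO lungs were below all WT lungs, with a difference of −0.67 (standard error 0.20, adjusted p = 0.806, limma). The collectin Sftpd did not overlap either (difference −0.43, adjusted p = 0.806). Sftpb, which is needed for surfactant to spread, differed by 0.29 and, without WT replicate 3, by 0.05. The lipid transporter Abca3 differed by 0.13. Among 12 genes of surfactant lipid synthesis and storage the median was −0.13, and 10 intervals lay within 2-fold. Type 1 cell genes had a median of −0.01, with 3 higher and 5 lower. The homeodomain gene Hopx was the exception, with levels of 13.49, 13.55 and 13.56 in WT and 13.08, 12.61 and 13.01 in KO lungs. Its groups were apart (difference −0.63, adjusted p = 0.806), while Ager differed by −0.18 and Rtkn2 by 0.13.

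**Figure D4:**
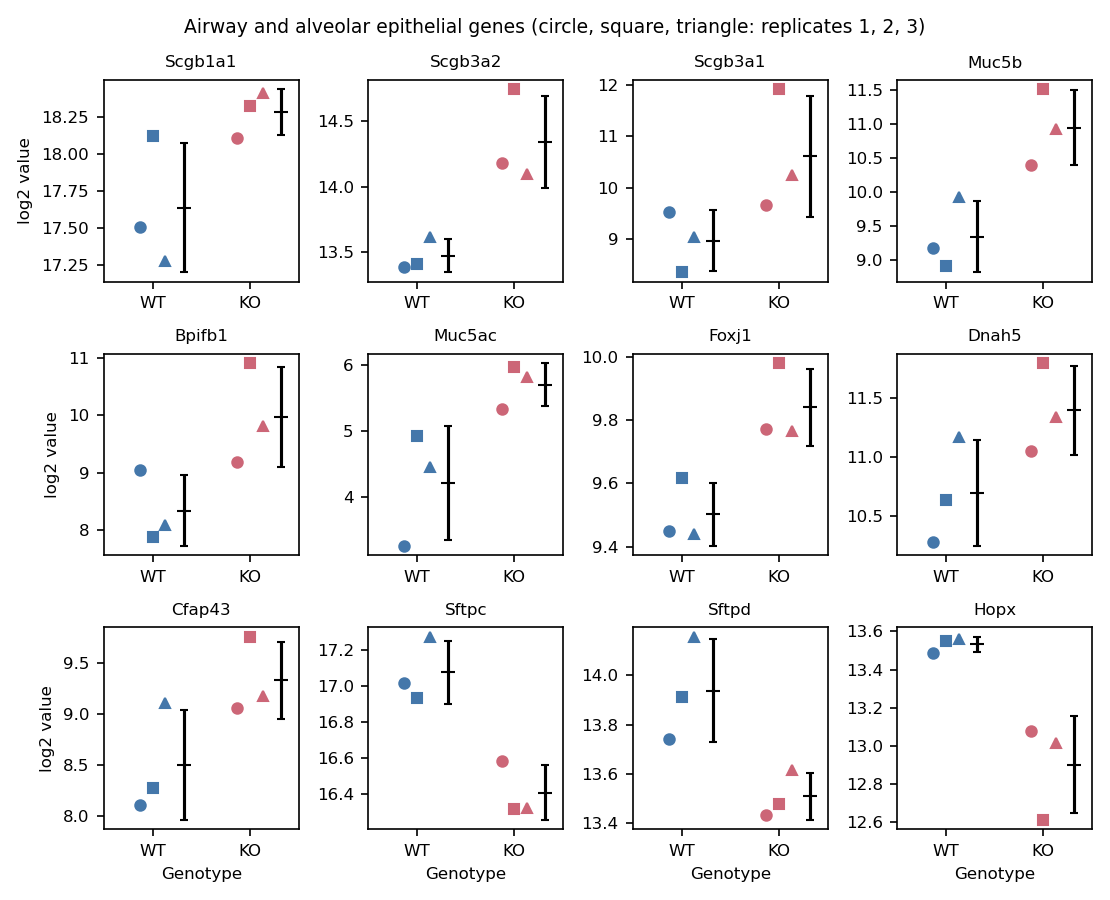
Log2 level of 12 epithelial genes in each lung library (vertical axes, 1 panel per gene, each with its own range; WT blue, KO red; circle, square and triangle are replicates 1, 2 and 3), with the mean and SD of 3 libraries in black. Genes for which the KO lungs lie above all WT lungs include Scgb3a2, Muc5b, Muc5ac and Foxj1. The KO lungs lie below all WT lungs for Sftpc, Sftpd and Hopx.

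Most genes of the capillary bed, the lymphatics and the mesenchyme had intervals within 2-fold (71.6% of all genes did). All 6 general capillary genes and all 7 aerocyte genes, which mark the gas-exchanging capillary cells, had intervals within 2-fold, with medians of 0.09 and −0.08 (−0.22 for aerocytes without WT replicate 3). The same held for the 7 arterial and the 8 alveolar fibroblast genes, and for 6 of 7 venous and 5 of 6 lymphatic genes. In the general capillary cells, Gpihbp1, which carries lipoprotein lipase, differed by −0.18 (95% interval −0.53 to 0.17). The fibroblast transcription factor Tcf21 differed by −0.02 (−0.72 to 0.67), and by −0.39 without WT replicate 3. Of 7 pericyte genes, 4 had a higher mean in KO lungs and 6 had intervals within 2-fold. KO lungs lay above all WT lungs for 3 of them (6.41% of all genes did). These were the proteoglycan gene Cspg4 (0.43), the Notch receptor gene Notch3 (0.44) and the laminin gene Lamc3 (0.62). The receptor Pdgfrb differed by −0.09 (−0.45 to 0.26). Smooth muscle genes had a median of 0.20, or 0.09 without WT replicate 3, with Acta2 at 0.23 and Myh11 at 0.39. Mesothelial genes had intervals within 2-fold in 7 of 7, with Upk1b at 0.54 and Muc16 at 0.55 as the only members with an unadjusted p under 0.05.

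Among myeloid cells, 5 of 8 alveolar macrophage genes had a lower mean in KO lungs, with a median of −0.12. Without WT replicate 3 the median was 0.02, and 5 had a higher and 3 a lower mean. Siglecf, a sialic acid receptor of alveolar macrophages and eosinophils, had levels of 7.80, 7.74 and 8.11 in WT and 7.21, 7.29 and 7.30 in KO lungs. The groups did not overlap (difference −0.62, adjusted p = 0.806). In contrast, the scavenger receptor Marco had levels of 9.46, 9.46 and 8.28 in WT and 9.49, 10.13 and 9.47 in KO lungs, and its difference of 0.63 was 0.24 without WT replicate 3. Interstitial macrophage genes had a median of −0.00 and 7 of 7 intervals within 2-fold. Of 8 monocyte genes, 7 had a higher mean in KO lungs, with a median of 0.19. Their summed level was between 14.03 and 14.50 in WT and between 14.56 and 14.84 in KO lungs, so that the sums did not overlap. However, 0 of the 8 single genes had every KO lung above every WT lung, and 7 intervals lay within 2-fold. The dendritic cell chemokine receptor Xcr1 differed by −0.93 (adjusted p = 0.806), and 4 of 8 dendritic cell intervals lay within 2-fold. All 7 tested neutrophil genes had a higher mean in KO lungs, with a median of 0.25 and summed levels between 10.68 and 10.94 in WT and between 10.86 and 11.68 in KO lungs. KO replicate 3 had the highest level of S100a8 and S100a9.

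Of 11 immunoglobulin constant genes tested, a family chosen after the values were seen, 9 had a higher mean in KO lungs. Ighm, the heavy chain of IgM, had levels of 10.67, 10.36 and 9.91 in WT and 11.43, 11.27 and 11.41 in KO lungs. No KO lung overlapped a WT lung, with a difference of 1.06 (standard error 0.20, adjusted p = 0.386, limma). Igha, the heavy chain of IgA, differed by 0.80 and did not overlap (adjusted p = 0.806), and Jchain, which joins the chains of both, differed by 0.92 (1.31 without WT replicate 3). All 9 B cell genes had a higher mean, with a median of 0.40, but 0 of 9 had groups that did not overlap, and the B cell genes Cd79a and Ms4a1 differed by 0.40 and 0.10 (0.44 without WT replicate 3 for Ms4a1). Of 218 immunoglobulin variable genes in the table, a set chosen after the values were seen, 56 were tested. Of these, 35 reached the limit for testing in more KO than WT libraries, 2 in more WT than KO libraries and 13 in all 6. The direction of the tested ones is thus partly set by the limit and is not counted here. The same holds for the T cell receptor genes, of which 15 of 211 were tested, 5 of them with the limit reached in more KO and 2 in more WT libraries. T cell marker genes had a median of 0.05, or −0.08 without WT replicate 3, with 11 of 12 intervals within 2-fold. Natural killer cell genes had a median of −0.23, which was −0.72 without WT replicate 3.

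Genes of blood and of neighbouring tissues varied widely between single lungs. The 7 red blood cell genes tested had a median of −1.09, which was −0.50 without WT replicate 3, and their summed level was 14.92, 14.98 and 16.66 in WT and 17.16, 12.85 and 13.45 in KO lungs. The highest and the lowest sums were thus both in KO lungs. Skeletal muscle genes had a median of −1.19, or −1.68 without WT replicate 3, and their summed level was 12.06 in WT replicate 2 and between 8.28 and 9.38 in the other libraries. Heart muscle genes, which the muscle sleeves of pulmonary veins also express, had a median of −0.40 with 9 of 10 lower, and Myh6 differed by −0.84 (adjusted p = 0.806), and by −0.52 without WT replicate 3. Adipocyte genes had a median of 0.39, or 0.67 without WT replicate 3, with summed levels between 10.10 and 11.87 in WT and between 10.44 and 12.58 in KO lungs. No gene of the thymus, oesophagus and liver lists reached the limit for testing.

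**Figure D5:**
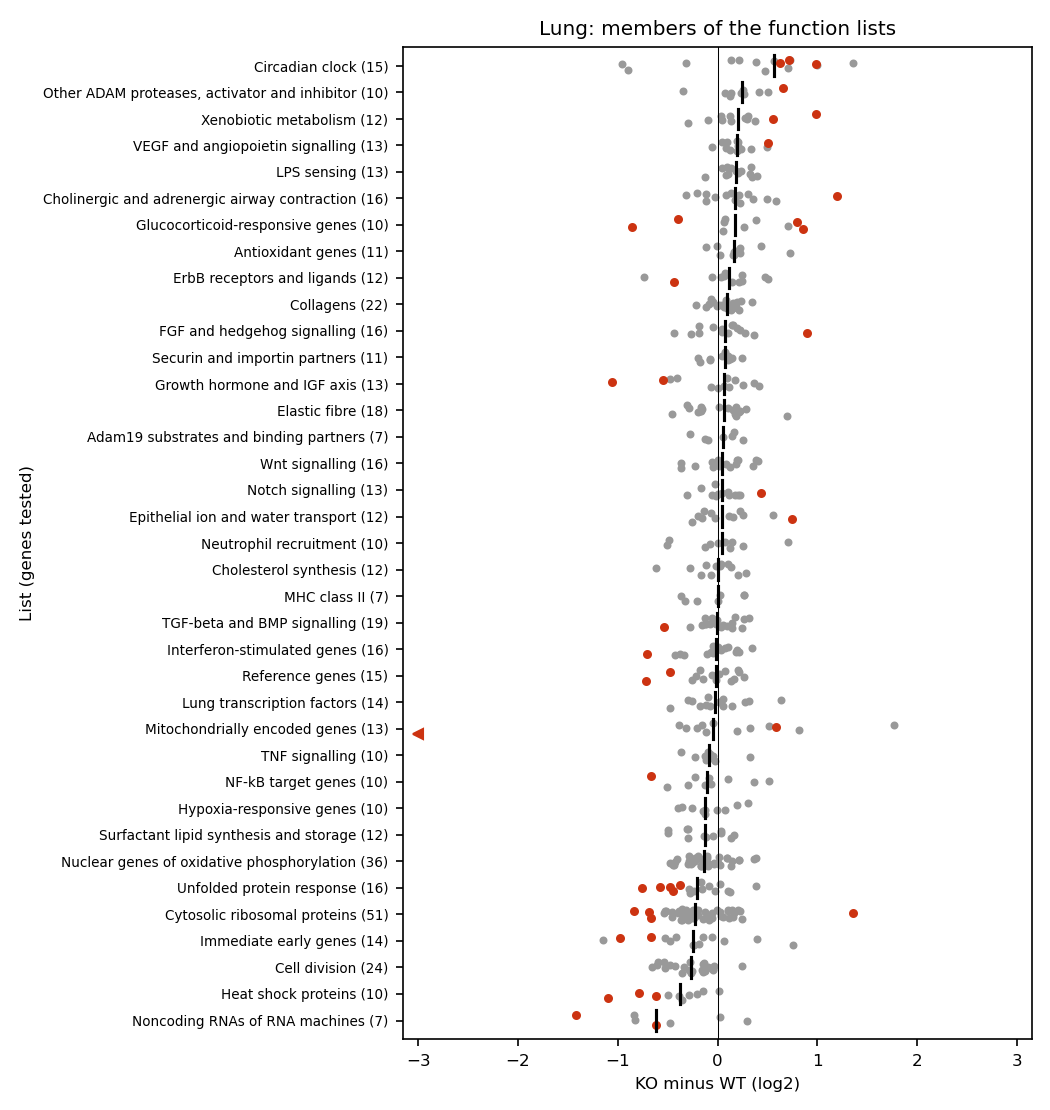
Difference between KO and WT lungs (log2, horizontal axis) of each tested member of 37 function lists (rows, number tested in brackets), with red points where the unadjusted p was under 0.05, black bars at list medians and a triangle at the border for 1 gene beyond −3 (mt-Co3). List medians run from −0.62 for noncoding RNAs of RNA machines (−0.40 without WT replicate 3) to 0.57 for the circadian clock (0.17 without it), and 33 of 37 lie within 0.25 of 0.

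In the pathways around ADAM19, the lists differed in how tightly they were bounded. Of its 7 tested substrates and partners, all 7 intervals lay within 2-fold, with Nrg1 at 0.15, Tnf at −0.09 and Kitl at −0.28. ErbB receptors and ligands had a median of 0.11, with 7 of 12 intervals within 2-fold, and the lowest difference was that of the ligand Areg (−0.74, adjusted p = 0.836, limma). The ligand Hbegf was the 1 member with an unadjusted p under 0.05 (difference −0.44, adjusted p = 0.806). TNF signalling had 10 of 10 intervals within 2-fold and a median of −0.09. Of these genes 9 had a lower mean in KO lungs, and without WT replicate 3 there were 5 lower and 5 higher. Other ADAM proteases with their activator and inhibitor had 5 of 10 intervals within 2-fold and a median of 0.24, with 9 higher. Without WT replicate 3 the median was −0.01, and 5 had a higher and 5 a lower mean. Adam8 had levels of 7.45, 7.58 and 7.77 in WT and 8.21, 8.40 and 8.17 in KO lungs. Its groups did not overlap (difference 0.66, adjusted p = 0.806). Adam17, the main TNF sheddase, had levels of 10.86, 10.84 and 11.34 in WT and 10.77, 10.55 and 10.67 in KO lungs. Its groups did not overlap either, in the other direction, with a difference of −0.35.

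Most matrix and signalling genes were bounded within 2-fold. Of 22 collagen genes 21, of 18 elastic fibre genes 15, and all 16 Wnt, all 13 Notch and all 19 TGF-beta and BMP genes had intervals within 2-fold. The collagens had the highest of these medians, 0.09, which was −0.14 without WT replicate 3. Within these lists, Notch3 differed by 0.44 (adjusted p = 0.806), as given above for pericytes, and Id1, a target of BMP signalling, by −0.54 (adjusted p = 0.806). The LPS sensing genes had a median of 0.18, or 0.07 without WT replicate 3, and 11 of 13 intervals within 2-fold. For airway contraction the median was 0.18, but the muscarinic receptor Chrm3, through which acetylcholine contracts airway smooth muscle, had levels of 4.84, 5.62 and 5.59 in WT and 6.76, 6.54 and 6.35 in KO lungs. All KO lungs lay above all WT lungs (difference 1.20, standard error 0.29, adjusted p = 0.783, limma). In the growth hormone and IGF list, Igfbp3 differed by −1.06 (adjusted p = 0.806), or by −0.75 without WT replicate 3, and Igfbp7 by −0.54 (adjusted p = 0.806). Of 12 genes of xenobiotic metabolism, 10 had a higher mean, among them Ephx1 (0.55, adjusted p = 0.806).

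Genes of protein folding mostly had a lower mean in KO lungs. Of 16 genes of the unfolded protein response, 12 had a lower mean in KO lungs, with a median of −0.20. For 6 of the 16, every KO lung lay below every WT lung (6.41% of all genes did so). Pdia6, a disulfide isomerase, had levels of 11.69, 11.65 and 11.79 in WT and 11.27, 11.16 and 11.36 in KO lungs. These did not overlap (difference −0.45, adjusted p = 0.806). The ER chaperone Hspa5 differed by −0.48 and the transcription factor Xbp1 by −0.37, and Atf4 by −0.08. Of 10 heat shock protein genes, 9 had a lower mean (median −0.37). The mitochondrial chaperonin subunit Hspe1 had levels of 9.73, 9.15 and 10.29 in WT and 8.87, 8.52 and 8.47 in KO lungs, a difference of −1.10 (adjusted p = 0.783). Its groups did not overlap, but WT replicate 3 was the highest, and without it the difference was −0.82. Of 24 cell division genes, 23 had a lower mean, with a median of −0.26 that became −0.16 without WT replicate 3. Of these 24, 4 did not overlap downwards, against 6.41% of all genes. Histone genes, chosen by symbol after the values were seen, had 47 of 59 lower with a median of −0.30, which was −0.07 without WT replicate 3. The 51 cytosolic ribosomal protein genes had a median of −0.22, which was −0.01 without that library.

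The circadian clock list had the highest median of the function lists, 0.57, with 12 of 15 genes higher. Here, too, 1 library carried much of the value. The clock repressor Per2 had levels of 9.96, 10.61 and 8.83 in WT and 10.56, 10.54 and 10.49 in KO lungs, and Ciart had levels of 7.19, 7.51 and 4.84 in WT and 7.70, 7.70 and 8.20 in KO lungs. WT replicate 3 was far the lowest for both. Conversely, the activator Arntl had levels of 6.12, 6.10 and 7.79 in WT and 5.69, 5.74 and 5.70 in KO lungs, and WT replicate 3 was the highest. Without it the list median was 0.17, and the transcription factor Hlf, with levels of 8.79, 9.45 and 8.06 in WT and 9.93, 9.59 and 9.73 in KO lungs, differed by 0.63 instead of 0.98. Times of sampling were not given in the sources used here.

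In oxidative phosphorylation, the 36 nuclear genes had a median of −0.14, with 11 higher and 25 lower, and 33 intervals within 2-fold. Without WT replicate 3 the median was 0.03, with 19 higher and 17 lower. Of the 13 genes encoded in mitochondria, mt-Co3 had levels of 14.79, 12.17 and 15.32 in WT and 12.13, 7.77 and 7.30 in KO lungs. Its groups did not overlap, and its difference of −5.03 (adjusted p = 0.783, limma) was the lowest of all list members and was −4.41 without WT replicate 3. It has an identical stretch of 783 bases in the pseudogene Gm28437. The sum of both had levels of 16.03, 15.94 and 16.56 in WT and 16.16, 16.12 and 15.66 in KO lungs, which overlapped and differed by −0.20. The gene mt-Co1, which encodes the catalytic subunit of cytochrome c oxidase, differed by −0.39.

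Beyond the lists, the 10 genes with the lowest unadjusted p in each direction, among genes with non-overlapping groups, no library at 0 and a group mean of at least 6, did not pass the adjustment. The lowest adjusted p belonged to Slc6a4, the serotonin transporter, which lung endothelium uses to clear serotonin. Its levels were 7.81, 7.63 and 7.60 in WT and 6.68, 6.43 and 6.45 in KO lungs. The lungs of each genotype lay close together, with a difference of −1.16 (standard error 0.19, adjusted p = 0.192, limma) and of −1.20 without WT replicate 3. Adamts17, a secreted metalloprotease, had levels of 7.39, 6.87 and 7.89 in WT and 5.91, 5.90 and 5.68 in KO lungs, a difference of −1.55 (adjusted p = 0.320, limma). The other genes with a lower mean were the histone genes H4c2 (−1.28) and H4c11 (−1.08), the neuropeptide gene Npw (−0.81), the mitochondrial valyl-tRNA synthetase gene Vars2 (−0.73), the RNase P RNA gene Rpph1 (−1.42) and Tlcd2 (−1.08), besides mt-Co3 and Hspe1, described above. The histone H4 genes share their coding stretch with one another. Slc6a4 and Tlcd2 lie on chromosome 11, as Adam19 does, where 1309 of the 16549 genes tested lie.

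Of the 10 genes with a higher mean, Wfdc17 had levels of 5.25, 5.42 and 5.01 in WT and 6.54, 6.61 and 6.51 in KO lungs. The KO lungs were nearly equal, and the difference was 1.32 (standard error 0.24, adjusted p = 0.314, limma). Slfn8, a Schlafen gene of immune cells, differed by 1.38, and its sum with the copy Slfn9 differed by 0.47 (0.34 without WT replicate 3). Ggnbp2 differed by 0.76, Nhlrc4 by 1.33 (0.48 when summed with Pigq, with which it shares sequence, and 0.12 for this sum without WT replicate 3), Mid1, a microtubule-binding ubiquitin ligase, by 0.93, the globin gene Adgb by 1.05, AU040972 by 0.99 and Drc3, a part of the nexin-dynein regulatory complex of motile cilia, by 0.99. Muc5b and Ighm, described above, complete these 10. Of the genes with a higher mean, Wfdc17, Slfn8, Ggnbp2, AU040972 and Drc3 also lie on chromosome 11 with Adam19. Whether their values go with their position on the chromosome of the targeted allele was not tested.

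The remaining lists are given by their counts and medians. Of 13 genes of VEGF and angiopoietin signalling, 12 had a higher mean in KO lungs with a median of 0.20, but without WT replicate 3 there were 7 higher and 6 lower with a median of 0.02. Of 11 antioxidant genes, 9 had a higher mean, with a median of 0.17. The 15 reference genes had a median of −0.02 and 14 intervals within 2-fold, and MHC class II genes had a median of 0.00 with 7 of 7. Of 16 interferon-stimulated genes 12, and of 12 genes of cholesterol synthesis 11, were within 2-fold, with medians of −0.02 and 0.00. Immediate early genes had 11 of 14 members with a lower mean and a median of −0.24, but only 2 intervals lay within 2-fold and the median was −0.63 without WT replicate 3. Of 10 glucocorticoid-responsive genes, 8 had a higher mean, with a median of 0.17. All 5 tested genes of platelets and megakaryocytes had a lower mean, with a median of −0.53.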

How the data were processed

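Values were the log2 gene values deposited by the authors, log2 of 1 plus an estimated count, scaled between libraries. The submitters' processing notes name cutadapt, STAR, Salmon, limma 3.42.2 and mm39, and the study used GENCODE vM33 annotation. Estimated counts were recovered as 2 to the power of the value, minus 1. KO and WT lungs came from different mice, 3 per genotype, grouped by the labels. Genes with a value of at least 3.46 in 3 or more lung libraries were tested with limma 3.58.1 in R 4.3.3 (trend of variance with abundance, no covariate) on the log2 values, without voom, and adjusted by the Benjamini-Hochberg method. A gene was called where the adjusted p was below 0.05, the means differed by 1.5-fold or more and the higher group mean reached 6. Alternatives were other scalings, limits on low values and pseudocounts, transcript sums, limma-voom, other variance settings and leaving out each library. The script was tested on simulated data. The tissues were compared with an interaction term over all 12 libraries. Lung and heart of 1 mouse are paired by the mouse identifiers in the labels, and the correlation of their deviations lay between −0.0679 and 0.136. Near-identical copies were searched with blastn 2.17.0 in GENCODE vM39 transcripts (GRCm39), to which 99.0% of genes matched.

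The members and lists were chosen with earlier results of these data known. Named were Adam19 and the construct, genes past the thresholds or in the study's own table, the first 3 genes of each cell type list, from each function list the member with the smallest p and that with the highest level, the 10 leading genes in each direction, the 10 most abundant protein-coding genes and copies. Other list members named, the 5 added gene families and the sums with copies were chosen after the values were seen. The lists received no test. A few single results are not reported here.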

Additional observations from a re-analysis of the deposited data

Results flagged for a closer look

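Cyfip2, which encodes a subunit of the WAVE actin-regulating complex, was the 1 gene of 17664 whose KO effect differed between lung and heart in the limma interaction test. In the lung it had levels of 9.06, 9.05 and 8.78 in WT and 9.31, 9.34 and 9.40 in KO mice, a difference of 0.39 (adjusted p = 0.809, limma). In the heart it had levels of 9.22, 9.43 and 9.91 in WT and 12.11, 12.54 and 12.01 in KO mice, a difference of 2.70 (adjusted p = 1.45e-05, limma). The lung difference less the heart difference was −2.31 (standard error 0.26, adjusted p = 0.0212, limma). With the lung and heart of each mouse as a block, the adjusted p was 0.280.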

How the results depend on the processing

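Between 10 and 11 lung genes passed the thresholds under the planned settings, except that 1 gene, Pttg1, passed when the limit had to be reached in all 6 libraries. This leaves 15144 genes and removes those below it in any library, Adam19 and AA465934 included, while Cd300lg stayed and had an adjusted p of 0.133. With 1 library left out, the count lay between 10 and 14, and 8 or 9 of the 11 genes were among them. The number of genes with an interval within 2-fold lay between 9982 and 14414. Summed with their copies, which was chosen after seeing the data, Gm11131 differed by −0.34, Gm12663 by 0.14 and Gm21970 by −0.0336, in each case with the opposite sign to the single gene. H2-Q4 and Ublcp1 had far higher levels than Gm11131 and Gm12663, so that their sums mostly follow H2-Q4 and Ublcp1. The number of genes whose effect differed between lung and heart was 1, but 3 with the replicate block (0 in common with the fit without it), 4 with no trend of variance with abundance and between 0 and 9 with 1 mouse left out. The cause was not tested. For the lung alone, no paired analysis was possible because KO and WT lungs came from different mice. Under other settings, 21 list medians moved beyond the spread between libraries and 1249 did not. Among those that moved were club cells (0.81 with quantile normalization) and aerocytes (−0.22 without WT replicate 3). The 1249 include medians that shifted by more than 0.1 without WT replicate 3 and are therefore not all stable. Examples are the circadian clock (0.57, and 0.17 without it) and red blood cells (−1.09, and −0.50 without it). With 3 libraries per genotype, differences in genes with a mean level under 5 were rarely bounded.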
